A study of Homo sapiens with 6 samples.

Results

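The genes described here encode the proteins of the mitochondrial ribosome (mitoribosome). They were taken by name from a table of ribosome footprint counts, as every gene whose symbol is MRPL or MRPS followed by a number (with a letter A to D where there is one), together with DAP3 and without MRPL58. This gave 77 of the 19330 genes in the table, 48 named for the large subunit (MRPL) and 29 for the small subunit (28 MRPS genes and DAP3). All 77 had enough counts to be tested. MRPS18A would match this rule, but no gene in the table carried that symbol.

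Mitochondria carry their own ribosomes, which translate the few mRNAs that mtDNA encodes, all for subunits of the oxidative phosphorylation complexes. The rRNAs of the mitoribosome are transcribed from mtDNA, whereas its proteins are encoded in the nucleus, translated by cytosolic ribosomes and imported. Some of these proteins have bacterial counterparts and the others are particular to mitochondria. Footprints on MRPL and MRPS mRNAs are therefore a readout of cytosolic ribosomes at work on parts of the mitochondrial translation machinery.

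The footprints came from K562 cells, a human chronic myelogenous leukemia line, profiled in 3 sgCtrl and 3 sgN6AMT1 libraries. All cells had been transduced with the lentiviral CRISPR/Cas9 vector pLentiCRISPRv2, selected with puromycin for 48 h and collected 10 days after infection. The vector carried a guide against N6AMT1, a methyltransferase that modifies the cytosolic release factor eRF1, or against OR11A1 and OR2M49 in the controls, and the labels do not pair the control guides with libraries. The methods of the study write the second control gene as OR2M4 and also name a guide against EGFP, which the labels do not. For N6AMT1 the methods describe more than a single guide, and whether all sgN6AMT1 libraries carried the same one was not established here. No clones were described, so each library is a transduced population. The comparison asks how loss of N6AMT1 changes the footprints of each gene.

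N6AMT1 itself had 12.6, 8.27 and 16.8 CPM (counts scaled to the library size after TMM normalization) in the 3 controls and 4.38, 3.89 and 4.34 CPM in the depleted libraries, and its footprints fell (log2 fold change -1.51 ± 0.31, SE, adjusted p = 6.69e-05). In bulk populations such as these, fewer cells with a transcript and fewer footprints per cell cannot be told apart. Library totals ran from 1821356 to 2969736 counts. Of 15 K562 markers, 15 passed the filter on low counts, against 3 of 10 markers of other cells, EPCAM at 177 CPM among them and KRT5 and MS4A1 at 0. The K562 markers moved with the groups, as 4 rose (HBA1, HBA2, HBE1 and TAL1) and 4 fell (GATA1, KLF1, HBZ and TFRC). Each is 26.7% of the 15, against 12.9% of all genes tested that rose and 13.9% that fell. The part of these markers in the members' results was not tested. The members held 17235, 25291 and 17866 counts in the control libraries and 19347, 19391 and 15633 counts in the depleted ones, and single members held between 9 counts (MRPL33) and 948 (MRPL3) in a library. Replicates were close, with a median SD over the members of 0.09 log2 CPM in sgCtrl and 0.099 in sgN6AMT1, below the 0.141 and 0.144 over all genes tested. Footprints rise with mRNA abundance as well as with translation, and RNA sequencing was not used here, so a change below is one of footprints.

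Base composition recurs in the results, where GC content went with the change in the MRPL genes (Spearman's rho 0.44, n = 47). It did so little in the small-subunit genes (rho 0.13, n = 27). The coding sequences of the members that moved furthest differ in base composition, so the 60 codons at the middle of 6 of them are shown. They are the 3 members with the largest decrease (MRPL1, MRPS9, MRPS10) and the 3 with the largest increase (MRPL46, MRPL18, MRPL53) among those past the threshold, with each G or C at the third codon position in capitals. The sequences were read from the GENCODE release 44 transcripts on GRCh38, 5′ to 3′.
MRPL1: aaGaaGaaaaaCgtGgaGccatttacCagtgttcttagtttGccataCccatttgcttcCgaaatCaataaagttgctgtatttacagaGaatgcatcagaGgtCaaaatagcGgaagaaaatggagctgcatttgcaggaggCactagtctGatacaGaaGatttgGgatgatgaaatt
MRPS9: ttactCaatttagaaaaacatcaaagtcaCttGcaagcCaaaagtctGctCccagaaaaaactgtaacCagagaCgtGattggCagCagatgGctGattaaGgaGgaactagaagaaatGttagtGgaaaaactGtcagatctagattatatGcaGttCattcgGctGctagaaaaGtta
MRPS10: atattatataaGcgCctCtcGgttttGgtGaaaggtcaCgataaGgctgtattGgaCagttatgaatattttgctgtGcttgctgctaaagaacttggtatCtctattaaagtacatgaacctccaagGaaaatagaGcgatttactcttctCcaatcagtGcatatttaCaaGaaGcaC
MRPL46: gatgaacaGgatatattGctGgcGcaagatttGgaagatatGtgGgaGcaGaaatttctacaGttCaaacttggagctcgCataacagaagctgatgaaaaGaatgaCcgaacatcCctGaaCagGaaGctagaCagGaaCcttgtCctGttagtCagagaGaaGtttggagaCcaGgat
MRPL18: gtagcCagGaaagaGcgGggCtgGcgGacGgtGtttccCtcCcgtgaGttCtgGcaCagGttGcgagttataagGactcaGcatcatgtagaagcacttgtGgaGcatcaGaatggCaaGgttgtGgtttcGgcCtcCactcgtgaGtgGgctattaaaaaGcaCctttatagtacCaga
MRPL53: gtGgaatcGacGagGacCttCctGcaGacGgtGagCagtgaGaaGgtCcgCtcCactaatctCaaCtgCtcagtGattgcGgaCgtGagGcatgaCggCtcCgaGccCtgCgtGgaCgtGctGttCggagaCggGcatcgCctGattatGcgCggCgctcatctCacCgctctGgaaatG

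The MRPL1 stretch (codons 133 to 192 of 325, gene at chr4:77862830-77952785, plus strand) has 19 G or C among its 60 codon ends. Those of MRPS9 (codons 169 to 228 of 396, chr2:105038069-105099960, plus strand) and MRPS10 (codons 71 to 130 of 201, chr6:42206807-42217861, minus strand) have 24 and 20. The MRPL46 stretch (codons 110 to 169 of 279, chr15:88459478-88467388, minus strand) has 29, that of MRPL18 (codons 61 to 120 of 180, chr6:159790467-159798429, plus strand) has 33, and that of MRPL53 (codons 27 to 86 of 112, chr2:74471982-74472680, minus strand) has 46. Over the whole coding sequence, 31.1% of codons in MRPL1 ended in G or C, 42.2% in MRPS9, 38.8% in MRPS10, 57.7% in MRPL46, 56.7% in MRPL18 and 74.1% in MRPL53.

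Footprints changed on 17 of the 77 members (22.1%), against 26.9% of the 9202 genes tested (edgeR's quasi-likelihood test, Benjamini-Hochberg adjusted p under 0.05). Decreases outnumbered increases. Footprints fell on 13 members (16.9%, background 13.9%) and rose on 4 (5.19%, background 12.9%). In this fit the members' share of calls was near the background for decreases and below it for increases. Changes were small, with a median log2 fold change of -0.05 over the 77 (0.01 with total counts only), a median size of 0.15 regardless of sign, and a range from -0.71 (MRPL1) to 0.77 (MRPL53). CPM of the sgCtrl and sgN6AMT1 libraries did not overlap for 28 members (36.4%, background 37.5%), of which 16 were among the 17 that passed the test.

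**Figure D1:**
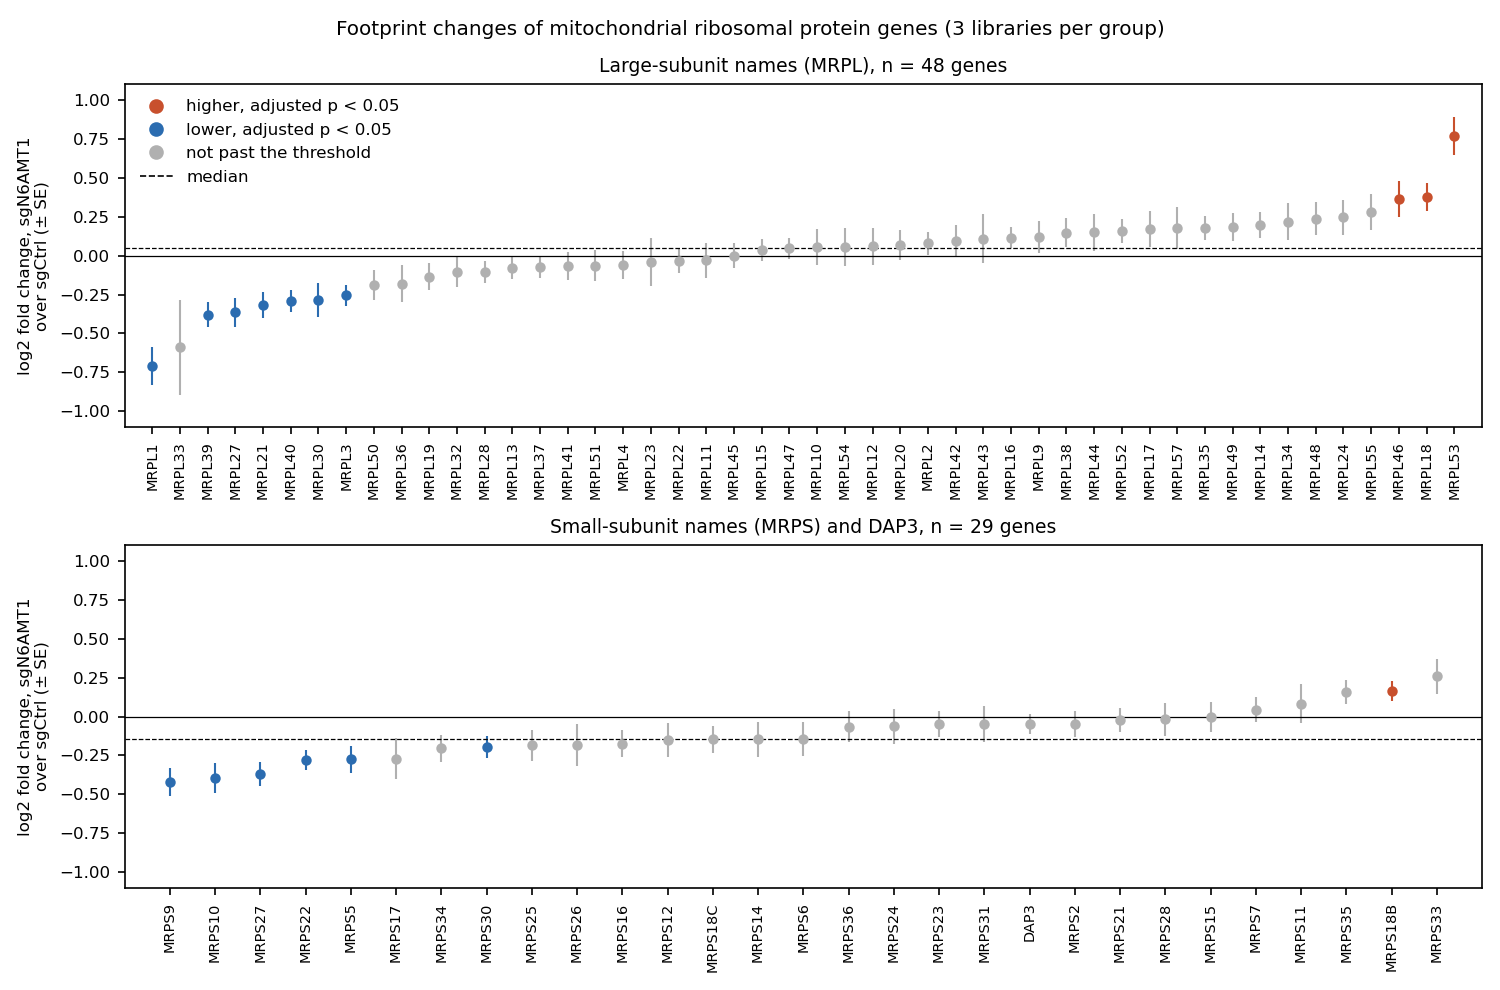
Log2 fold change (sgN6AMT1 over sgCtrl, ± SE, 3 libraries per group) of the 48 MRPL genes (upper panel) and the 29 small-subunit genes (lower panel), each sorted by value. Colored points passed an adjusted p of 0.05, and the dashed lines mark the medians of 0.05 and -0.14, the first of which was -0.01 once trends on coding sequence length and GC content were removed.

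The count of changed members depended on the scaling of the libraries. Scaled by total counts without TMM factors, which moved the median gene from 0.01 to 0.06, 14 members rose (background 17.0%) and 11 fell (background 10.6%). With trends on coding sequence (CDS) length and GC content removed, 3 of 74 members rose (background 13.6%) and 17 fell (background 15.2%). Without the filter on low counts, 3 members rose (background 8.78%) and 13 fell (background 9.54%), and in DESeq2 2 rose (background 5.49%) and 10 fell (background 6.91%). Without the filter, the members' share of calls in either direction was above that of all genes (20.8% against 18.3%). The same held in DESeq2 (15.6% against 12.4%). These backgrounds hold 13622 and 10716 genes, against 9202 with the filter, so they include low-count genes, whereas every member passed the filter. With the filter, the members' share was above the background with total counts only (32.5% against 27.6%) and below it with TMM factors. It was also below at a mean of at least 50 counts (25.0% against 33.6%), for increases (10.5% against 16.5%) and decreases (14.5% against 17.1%). No order against the background therefore held across the settings. Of the 17 members, 11 passed the threshold in every alternative that was run, and 0 changed sign in any.

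Small-subunit genes had mostly negative values, whereas MRPL genes were split. Of the 29 small-subunit genes, 24 had a negative log2 fold change (82.8%), with a median of -0.14 that stayed negative in every alternative run. The count depended on the scaling, since with total counts only 17 of the 29 were negative (58.6%), against 41.9% of all genes tested, and 35 of the 77 members (45.5%). Of the 48 MRPL genes, 22 were negative (45.8%), close to the 49.0% of all genes tested. Their median was 0.05 and turned to -0.01 with the length and GC trends removed and to 0.0 without sgCtrl 2. The median of the MRPL genes exceeded that of the small-subunit genes by 0.19 on the log2 scale, and by 0.10 to 0.20 over the alternatives, with the smallest gap when sgCtrl 2 was left out. No test was made of this difference between the lists. In the main fit, with TMM factors and no trends removed, the calls alone did not set the subunits apart. Among the MRPL genes 3 were higher (6.25%) and 7 lower (14.6%), and among the small-subunit genes 1 (3.45%) and 6 (20.7%). Of all genes tested, 12.9% were higher and 13.9% lower. With total counts only, 11 MRPL genes were higher (22.9%) and 6 lower (12.5%). Of the small-subunit genes 3 were higher (10.3%) and 5 lower (17.2%), with backgrounds of 17.0% and 10.6%. With the length and GC trends removed, 8 of 47 MRPL genes (17.0%) and 9 of 27 small-subunit genes (33.3%) fell (background 15.2%). How far the calls set the subunits apart therefore depended on the setting.

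The summed footprints of each library, where abundant members weigh most, showed the subunits apart as well. Small-subunit genes summed to 3409.7, 3520.4 and 3551 CPM in sgCtrl and to 3288, 3218 and 3259.9 CPM in sgN6AMT1. Every sgN6AMT1 library was below every sgCtrl library (3494 ± 74.2 against 3255 ± 35.2, SD, n = 3 per group). MRPL genes summed to 5248, 5199 and 5257 CPM in sgCtrl and to 5192, 5159 and 5227 CPM in sgN6AMT1, and these groups overlapped.

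The ratio of MRPL to small-subunit counts, which does not depend on library scaling, was 1.539, 1.477 and 1.481 in the controls and 1.579, 1.603 and 1.603 after N6AMT1 depletion. It was higher in each sgN6AMT1 library than in any sgCtrl library, at 1.499 ± 0.0347 against 1.595 ± 0.0139 (SD, n = 3 per group). Symbols do not always name the subunit, since MRPS30 sits in the large subunit as mL65 and MRPS36, also known as KGD4, is a component of the 2-oxoglutarate dehydrogenase complex. With MRPS30 counted in the large subunit and MRPS36 in neither, the ratio was 1.696 ± 0.0452 in sgCtrl and 1.791 ± 0.0189 in sgN6AMT1 (SD, n = 3 per group). The groups again did not overlap, but sgCtrl 1 (1.747) and sgN6AMT1 1 (1.769) lay close. As a share of all counts in a library, without TMM factors, MRPL genes made up 0.512% ± 0.00331 in sgCtrl and 0.526% ± 0.00215 in sgN6AMT1 and small-subunit genes 0.341% ± 0.00644 and 0.33% ± 0.00311 (SD, n = 3 per group), with no overlap in either. With the 2 genes placed in that way, the small-subunit share was 0.313% ± 0.00674 in sgCtrl and 0.304% ± 0.00308 in sgN6AMT1 (SD, n = 3 per group), and the groups overlapped. Whether the MRPL sum moved at all therefore depended on the scaling, while its position relative to the small-subunit sum did not. All members together held 0.853% ± 0.0055 of counts in sgCtrl and 0.856% ± 0.00442 in sgN6AMT1, and these shares overlapped.

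**Figure D2:**
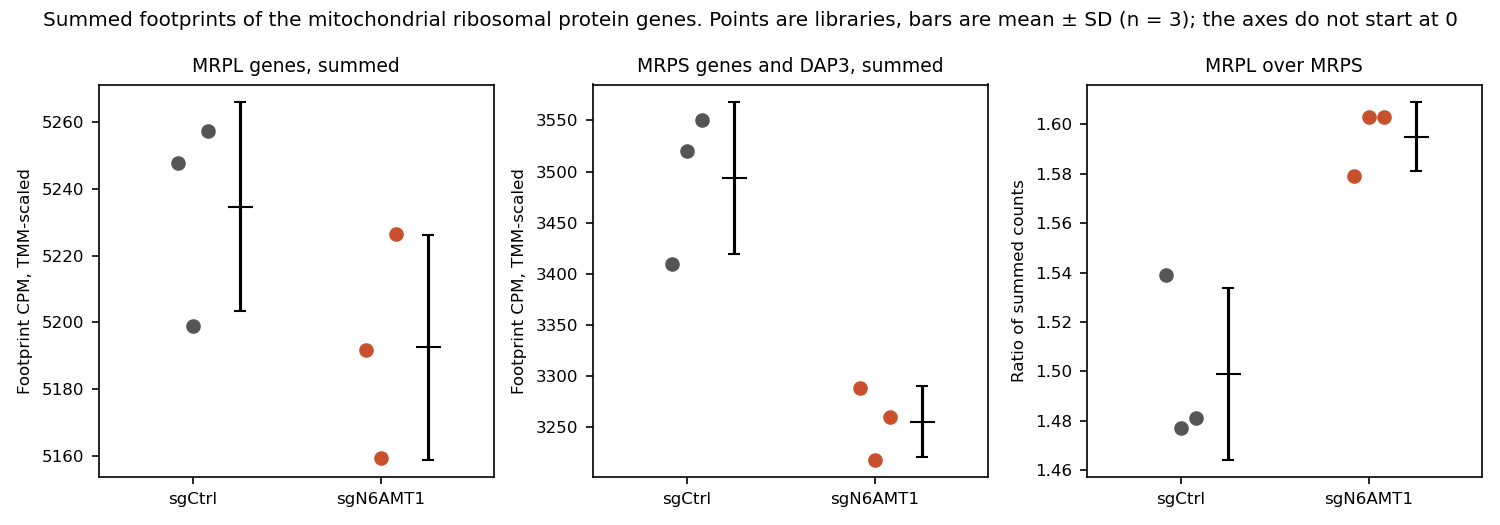
Summed footprint CPM of the MRPL genes (left) and of the small-subunit genes (middle), and the ratio of their summed counts (right), in each of the 6 libraries, with mean ± SD beside the points. Axes do not start at 0. The sgN6AMT1 ratios of 1.579 to 1.603 lie above the sgCtrl ratios of 1.477 to 1.539.

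Among the proteins of the large subunit that have bacterial counterparts, the largest change was on MRPL1, the homolog of the L1 stalk protein. MRPL1 had 83.4, 73.4 and 69.5 CPM in sgCtrl and 57.9, 39.3 and 40.2 CPM in sgN6AMT1. Every depleted library lay below every control, although the sgN6AMT1 libraries spread widely. The log2 fold change was -0.71 ± 0.12 (SE, adjusted p = 1.54e-06) and stayed between -0.92 and -0.60 over the alternatives, all past the threshold.

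MRPL3, the homolog of bacterial L3 and the member with the most footprints in sgCtrl before correction for length, had 295, 327 and 287 CPM in sgCtrl and 295, 232 and 236 CPM in sgN6AMT1. It was the one changed member whose groups overlapped, since sgN6AMT1 1 was as high as sgCtrl 1. It fell by 0.26 on the log2 scale (SE 0.07, adjusted p = 0.00226), but did not pass without sgCtrl 2 (adjusted p = 0.0647) or without sgN6AMT1 2 (adjusted p = 0.0866). MRPL21 (-0.32 ± 0.08, adjusted p = 0.00141) and MRPL30 (-0.28 ± 0.11, adjusted p = 0.0438) also fell. MRPL30 was close to the threshold and lost its call in 8 of 16 alternatives, among them those without sgCtrl 1, sgCtrl 2, sgN6AMT1 1 or sgN6AMT1 2, with adjusted p up to 0.22. Over the 30 large-subunit genes with bacterial counterparts, 1 rose (3.33%, background 12.9%), 5 fell (16.7%, background 13.9%) and 24 did not pass. Their median was 0.0019.

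The central protuberance, the crown of the large subunit that faces the small subunit, held calls in both directions. Of its 6 listed genes, MRPL18 and MRPL46 rose (33.3%, background 12.9%) and MRPL27 and MRPL40 fell (33.3%, background 13.9%). MRPL38 (0.15 ± 0.09) and MRPL48 (0.24 ± 0.11) did not pass. These shares rest on 6 genes only, and calls in both directions were also found over all genes tested. MRPL18, the homolog of bacterial L18, had 91.4, 99.6 and 92.2 CPM in sgCtrl and 117, 129 and 124 CPM in sgN6AMT1 (0.38 ± 0.09, adjusted p = 0.000547), with no overlap. MRPL46, a protein particular to mitochondria, had 53.8, 58.3 and 57.2 CPM in sgCtrl and 68.8, 84.2 and 64.1 CPM in sgN6AMT1 (0.36 ± 0.11, adjusted p = 0.0104). All sgN6AMT1 values of MRPL46 were above those of sgCtrl, yet without sgN6AMT1 2, its highest library, the value was 0.24 with an adjusted p of 0.196, and DESeq2 gave 0.131.

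MRPL40, another protein particular to mitochondria, had 200.4, 212 and 202 CPM in sgCtrl and 168, 162 and 175 CPM in sgN6AMT1, with little spread in either group and no overlap (-0.29 ± 0.07, adjusted p = 0.000831). MRPL27, the homolog of bacterial L27, had 106, 118 and 128 CPM in sgCtrl and 93.4, 82.1 and 98.8 CPM in sgN6AMT1, again without overlap (-0.36 ± 0.09, adjusted p = 0.00145). MRPL46 and MRPS11 lie head to head on chromosome 15 with 320 bases between their start sites. MRPL46 passed the test and MRPS11 did not, at a log2 fold change of 0.08 ± 0.12 (adjusted p = 0.674). The difference between the pair was not tested.

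The largest increase was on MRPL53, a short large-subunit protein particular to mitochondria. MRPL53 had 43.7, 31.7 and 40.4 CPM in sgCtrl and 60.5, 68.7 and 64.6 CPM in sgN6AMT1. The lowest sgN6AMT1 library was above the highest sgCtrl library. The log2 fold change was 0.77 ± 0.12 (SE, adjusted p = 3.40e-07), a ratio of means of 1.7, and it ran from 0.62 to 0.86 over the alternatives, all past the threshold.

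MRPL39, also particular to mitochondria, had 149.7, 158 and 173 CPM in sgCtrl and 125, 119.7 and 124 CPM in sgN6AMT1, without overlap (-0.38 ± 0.08, adjusted p = 9.59e-05). MRPL39 lies at chr21:25585656-25607517 on the chromosome that carries N6AMT1. Of 86 chromosome 21 genes tested, 37 fell (43.0%, background 13.9%) and 2 rose (2.33%, background 12.9%), with a median of -0.26 and 76.7% negative. The part of this in the MRPL39 value was not tested. MRPS6, the other member on chromosome 21, had a log2 fold change of -0.14 ± 0.11 (adjusted p = 0.355). Of the 19 large-subunit genes particular to mitochondria, 2 rose (MRPL46 and MRPL53, 10.5%, background 12.9%). Of the same 19, 3 fell (MRPL39, MRPL40 and MRPS30, 15.8%, background 13.9%) and 14 did not pass, with a median of 0.09.

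For the L7/L12 stalk, where translation factors bind, only MRPL10, MRPL11 and MRPL12 were listed. These 3 genes held no call, where 26.9% of all genes tested were called, and other proteins of that region were not counted with them. MRPL12, present in several copies per ribosome, had 55.8, 55.5 and 50.8 CPM in sgCtrl and 55.2, 63.5 and 49.4 CPM in sgN6AMT1, with the sgCtrl values inside the range of the sgN6AMT1 values (0.06 ± 0.12, adjusted p = 0.759). MRPL10 (0.05 ± 0.12) and MRPL11 (-0.03 ± 0.11) also did not pass. Of 8 genes around the exit of the peptide tunnel, 1 fell (MRPL39, 12.5%, background 13.9%) and 0 rose (background 12.9%), with a median of 0.02.

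In the small subunit, MRPS9 and MRPS10, homologs of bacterial S9 and S10, fell furthest. MRPS9 had 127, 135 and 117 CPM in sgCtrl and 98.6, 94.2 and 90.7 CPM in sgN6AMT1 (-0.42 ± 0.09, adjusted p = 0.000101). MRPS10 had 98, 106 and 111 CPM in sgCtrl and 85, 81.2 and 72.7 CPM in sgN6AMT1 (-0.40 ± 0.10, adjusted p = 0.000849). In both genes all depleted libraries were below all controls, and both passed in every alternative. MRPS5, the homolog of bacterial S5, had 145, 148 and 129 CPM in sgCtrl and 104, 120.5 and 126.5 CPM in sgN6AMT1, where sgCtrl 3 and sgN6AMT1 3 nearly met (-0.28 ± 0.09, adjusted p = 0.00937). Its call was lost in DESeq2 (adjusted p = 0.0894), without sgCtrl 2 (0.0712) and without sgN6AMT1 1 (0.119). Of 16 small-subunit genes with bacterial counterparts, 0 rose (background 12.9%) and 3 fell (18.8%, background 13.9%). Of these 16, 14 had a negative value, with a median of -0.15.

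MRPS27, a pentatricopeptide repeat protein, and MRPS22, both particular to mitochondria, also fell. MRPS27 had 156, 169 and 176 CPM in sgCtrl and 129.7, 131 and 126 CPM in sgN6AMT1, with sgN6AMT1 libraries within a narrow range below all controls (-0.37 ± 0.08, adjusted p = 0.000104). MRPS22 had 250.2, 259.6 and 273 CPM in sgCtrl and 219, 203 and 224 CPM in sgN6AMT1 (-0.28 ± 0.07, adjusted p = 0.000482). MRPS30 had 196, 187 and 210.5 CPM in sgCtrl and 169.6, 171 and 176 CPM in sgN6AMT1 (-0.20 ± 0.07, adjusted p = 0.0318). The groups did not overlap for any of the 3, but the MRPS30 call was lost in 8 of 16 alternatives, among them those without sgCtrl 1, sgCtrl 3, sgN6AMT1 1 or sgN6AMT1 2, with adjusted p up to 0.162.

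MRPS18B was the one small-subunit gene that rose. It is one of the MRPS18 paralogs, which occupy different places in the mitoribosome. It had 241, 278 and 248.5 CPM in sgCtrl and 283, 289 and 294 CPM in sgN6AMT1, with the highest control just below the lowest depleted library (0.17 ± 0.06, adjusted p = 0.042). This call was lost in 8 of 15 alternatives, with adjusted p of 0.215 without sgCtrl 1, 0.146 without sgCtrl 3, 0.117 without sgN6AMT1 2 and 0.105 without sgN6AMT1 3. MRPS18C had 122, 132 and 113 CPM in sgCtrl and 114, 109 and 110.2 CPM in sgN6AMT1, and overlapped (-0.15 ± 0.09, adjusted p = 0.214). Of 11 small-subunit genes particular to mitochondria, 1 rose (MRPS18B, 9.09%, background 12.9%) and 2 fell (MRPS22 and MRPS27, 18.2%, background 13.9%). Their median was -0.05. The GTP-binding protein DAP3 had 263, 262 and 274 CPM in sgCtrl and 259, 234 and 283 CPM in sgN6AMT1, with the sgCtrl values inside the range of the sgN6AMT1 values (-0.05 ± 0.07, adjusted p = 0.64). MRPS36 was at -0.07 ± 0.10 (adjusted p = 0.678).

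**Figure D3:**
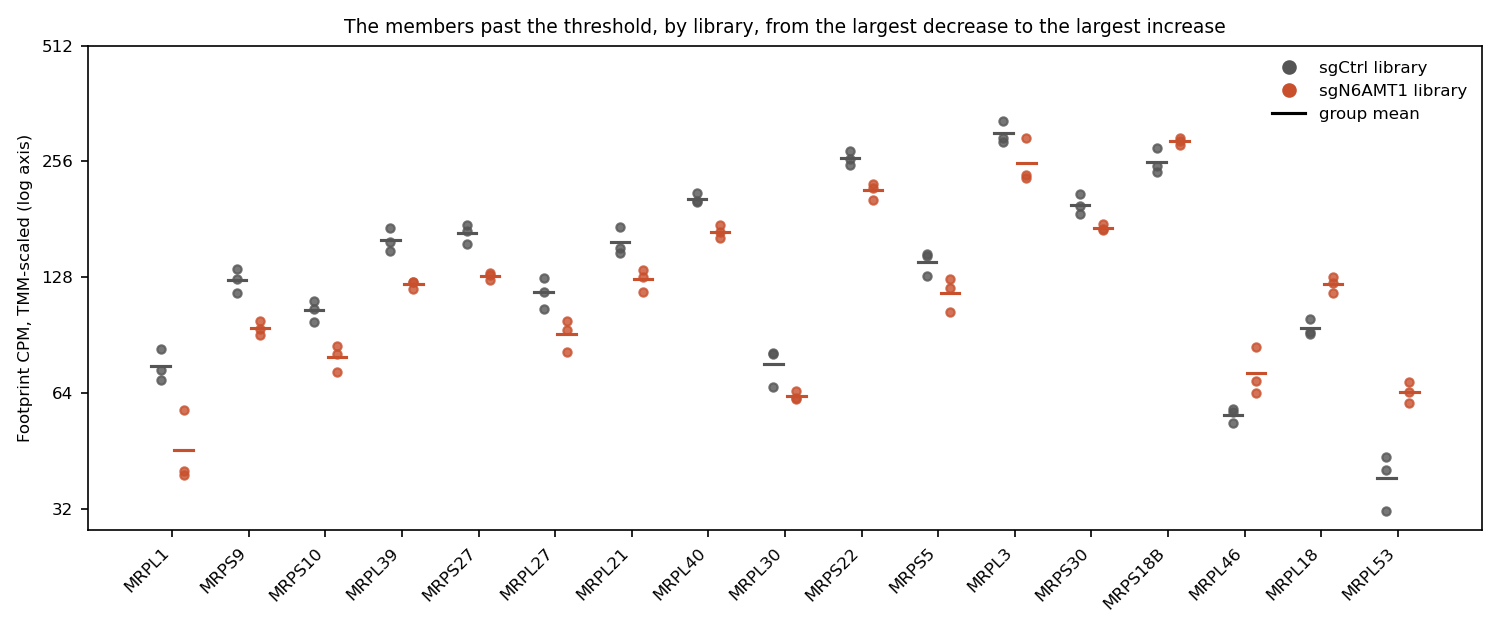
Footprint CPM (log axis) of the 17 members past the threshold in each of 3 sgCtrl and 3 sgN6AMT1 libraries, with group means as bars, from MRPL1 on the left to MRPL53 on the right. The groups do not overlap for 16 of the 17 genes, the exception being MRPL3.

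The threshold cut through a run of close values. Just inside it were MRPS30 (adjusted p = 0.0318), MRPS18B (0.042) and MRPL30 (0.0438). Just outside were MRPL55 (0.0657), MRPS33 (0.0727) and MRPS34 (0.0745), with log2 fold changes of 0.28, 0.26 and -0.20. The libraries of the 2 groups did not overlap for MRPL55, MRPS33 or MRPS34, and MRPL55 and MRPS33 passed with total counts only (adjusted p = 0.0245 and 0.0255). MRPS34 passed with the length and GC trends removed (adjusted p = 0.0111), as did MRPS16 (0.00594).

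Members differed far more from each other in level than any did between the groups. Dividing CPM by the length of the CDS in kilobases, available for 74 members, gave a median of 163 CPM per kb in sgCtrl, with quartiles of 109 and 223 and a range from 35.4 (MRPL43) to 585 (MRPS21), a 16.5-fold spread between proteins of which most are present once per ribosome. MRPL and small-subunit genes had medians of 158 and 168 CPM per kb in sgCtrl. The highest levels were on MRPS21 (585 ± 21.1, SD, n = 3), MRPL52 (392 ± 13.2), MRPL13 (369 ± 30.3), MRPL40 (332 ± 10.5) and MRPS16 (312.5 ± 17.2 CPM per kb). The lowest were on MRPL44 (60.2 ± 10.8), a protein with an RNase III fold, MRPL23 (51.3 ± 2.34), MRPS31 (47.7 ± 3.2), MRPL33 (45.8 ± 14.5) and MRPL43 (35.4 ± 5.78 CPM per kb). For MRPS21, MRPL52, MRPL23, MRPL33 and MRPL43 the listed transcript is not the Ensembl canonical one, so both ends of the range rest on such transcripts. The CDS of MRPS21 has only 261 bases. How far the choice of transcript or a short CDS shaped the spread was not tested.

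In this order of levels, 67 of 73 neighboring pairs differed by less than the larger of their SDs, so most neighbors could not be ordered. The order was nearly the same in sgN6AMT1 (Spearman's rho 0.948 over 74 genes, which share libraries and lengths), with a median of 158 CPM per kb. MRPL12 was at 90.9 ± 4.72 in sgCtrl and 94.3 ± 11.9 CPM per kb in sgN6AMT1 (SD, n = 3), below the lower quartile in both. Of the 5 highest genes, MRPL40 fell and the other 4 did not pass, where 26.9% of all genes tested were called and 13.9% fell. Of the 5 lowest, 0 passed (MRPL33 had the largest value, -0.59 ± 0.30, adjusted p = 0.147, at 9 to 25 counts per library). With 5 genes each, these counts do not set either end apart from the background.

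**Figure D4:**
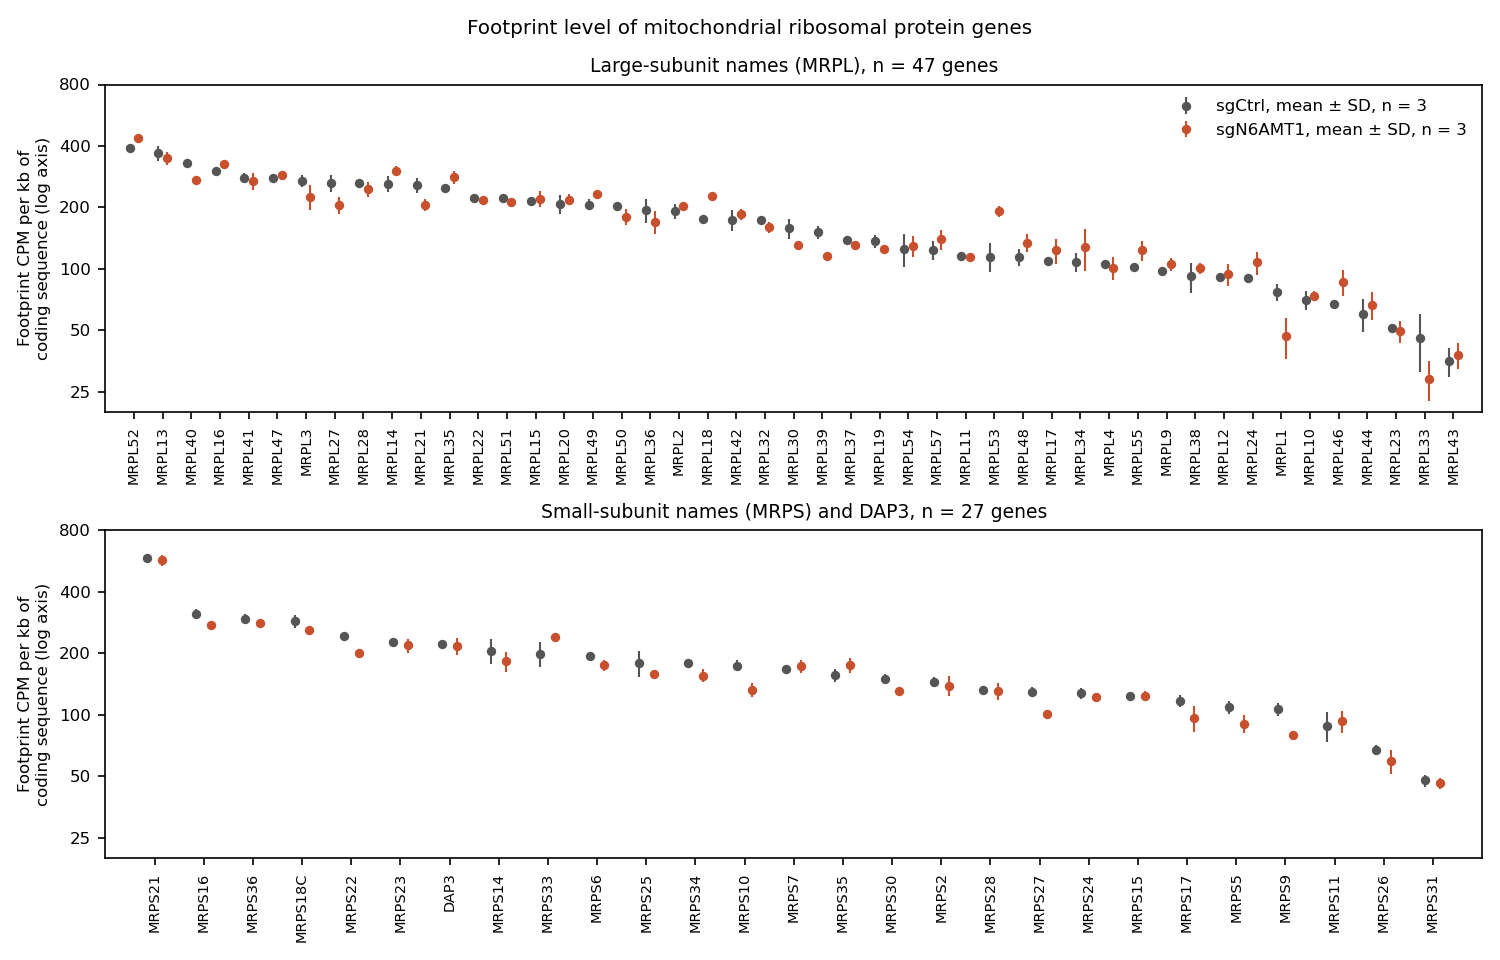
Footprint CPM per kilobase of coding sequence (log axis, mean ± SD, n = 3 libraries) of 47 MRPL genes (upper panel) and 27 small-subunit genes (lower panel), each sorted by the sgCtrl mean. Levels run from 585 for MRPS21 to 35.4 for MRPL43 in sgCtrl, and paired sgCtrl and sgN6AMT1 points differ little compared with this range. Lengths of MRPS21 and MRPL43 come from listed transcripts that are not the Ensembl canonical ones.

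Members whose coding sequence is rich in A and T had more negative log2 fold changes. Across 74 members, the log2 fold change and CDS GC content had a Spearman's rho of 0.38 (Pearson's r 0.41), against 0.09 (r 0.07) across 8607 genes tested. Within the MRPL genes rho was 0.44 (n = 47) and within the small-subunit genes 0.13 (n = 27). These are descriptions across genes that share the same libraries, and genes are not independent replicates. The 13 members that fell had a median CDS GC of 45.2% and a median CDS of 1059 bases, whereas the 60 that did not pass had 53.5% and 567 bases. Of the 18 members under 45% GC, 6 fell (33.3%) and 0 rose, where 16.1% of all genes tested in that range fell and 9.16% rose. Of the 40 members between 45% and 60%, 7 fell (17.5%) and 2 rose, against 13.3% and 15.1% of all genes. Of the 16 above 60%, 0 fell and 1 rose, against 12.2% and 12.3% of all genes. CDS length had a weaker relation to the change (rho -0.13 in both the members and all genes tested). The level in sgCtrl moved with it too, at a rho of -0.31 in the members, -0.35 in the MRPL genes and -0.26 in all genes tested, and its part in the relation to GC was not tested. With length and GC trends over all genes removed, rho with GC in the members was 0.3, against 0.02 in all genes.

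In the MRPL genes the relation was not confined to the ends of codons. Spearman's rho between the log2 fold change and GC at the first, the second and the third codon position was 0.3, 0.35 and 0.31 across 74 members and 0.04, 0.04 and 0.11 across 8596 genes tested whose CDS is a whole number of codons. It was 0.39, 0.38 and 0.37 in the MRPL genes and -0.08, 0.16 and 0.11 in the small-subunit genes. When the members were ordered by GC at the third position, the 24 lowest (29.1% to 48.1%) had a median log2 fold change of -0.11, with 8 that fell, 0 that rose and 17 negative. The 26 in the middle (49% to 64.1%) had a median of -0.06, with 5 that fell, 2 that rose and 17 negative. The 24 highest (64.9% to 90.5%) had a median of 0.05, with 0 that fell, 1 that rose and 10 negative. All genes tested had a median of -0.04 in the range of the lowest (n = 3206, from 22.3% up to the same upper bound), 0.03 between the bounds (n = 2394) and 0.05 in the range of the highest (n = 2996, from the same lower bound up to 97%). Of them 16.9%, 12.5% and 11.5% fell and 9.26%, 15.0% and 15.2% rose in the lowest, the middle and the highest range.

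**Figure D5:**
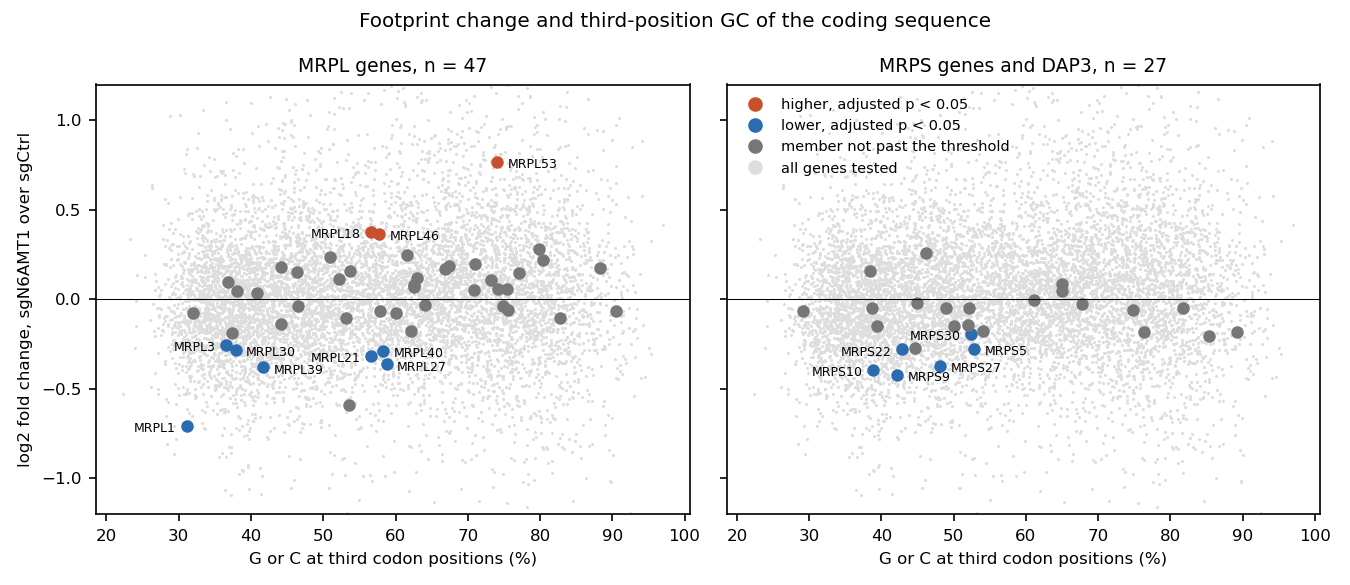
Log2 fold change (sgN6AMT1 over sgCtrl) against the percentage of codons ending in G or C, for 47 MRPL genes (left) and 27 small-subunit genes (right), over all genes tested in light gray (a few genes lie outside the vertical axis). None of the members that fell (blue) lies among the 24 with the highest percentage, with MRPL1 at 31.1% and MRPL53, which rose, at 74.1%.

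Promoter windows of the members were searched for motifs of activators known from nuclear genes for mitochondrial proteins. Windows of 300 bases (250 before and 50 after the start, RefSeq, GRCh38.p14) were found for 68 members, and MRPL2, MRPL10, MRPL13, MRPL15, MRPL21, MRPL23, MRPL35, MRPS28 and MRPS36 were not matched. On either strand, 39.7% of the 68 held the ETS motif CCGGAAG bound by GABP, against 10.3% of 35116 windows of the same length and 23.1% of the windows of 7176 genes tested. The YY1 motif AAGATGGCG was in 17.6% of members, 1.75% of all windows and 4.93% of those of genes tested. The NRF1 core GCGCATGC was in 8.82%, 3.05% and 6.51%, the SP1 box GGGCGG in 60.3%, 45% and 72%, and the cAMP response element TGACGTCA in 0 of 68 members, 1.85% and 3.69%. Both subunits held the ETS motif in like shares, 39% of 41 MRPL and 40.7% of 27 small-subunit windows, and it was in 6 of 12 members that fell, 1 of 4 that rose and 20 of 52 that did not pass. A match describes letters in a window only.

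Partners of the mitoribosome were read beside its proteins. The 4 mitoribosome proteins known by other names did not pass, at -0.18 (AURKAIP1, adjusted p = 0.0793), 0.20 (CHCHD1, 0.0823), 0.09 (GADD45GIP1) and -0.08 (PTCD3). Of 25 assembly factors tested, 4 fell (16.0%, background 13.9%) and 0 rose (background 12.9%), with a median of -0.05. Those that fell were MRM1 (-0.97 ± 0.18, adjusted p = 8.96e-06) and FTSJ2, now named MRM2 (-0.48 ± 0.14, adjusted p = 0.00454), both methyltransferases of the large-subunit rRNA, MTERF3 (-0.37 ± 0.14, adjusted p = 0.0374), and the RNA helicase DHX30 (-0.23 ± 0.07, adjusted p = 0.00527). Of 15 genes for mitochondrial translation, 4 fell (26.7%, background 13.9%) and 0 rose (background 12.9%), with a median of -0.13. They were LRPPRC (-0.54 ± 0.05, adjusted p = 1.01e-15), which stabilizes mitochondrial mRNAs, the elongation factor GFM1 (-0.31 ± 0.07, adjusted p = 8.69e-05), the initiation factor MTIF2 (-0.29 ± 0.11, adjusted p = 0.0404) and the insertase OXA1L (-0.19 ± 0.08, adjusted p = 0.0473). Among the partners that fell, the groups overlapped only for MTERF3 and OXA1L. MTERF3 had 37.2, 47.9 and 49.3 CPM in sgCtrl and 38.6, 39.7 and 25.0 CPM in sgN6AMT1. OXA1L had 178, 169 and 196 CPM in sgCtrl and 153, 152 and 169 CPM in sgN6AMT1.

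Cytosolic ribosomal protein genes were counted in the same fit. Of 73 cytosolic genes, 49 fell (67.1%, background 13.9%) and 0 rose (background 12.9%), with a median of -0.17 and 70 negative. Of the 77 members, 13 fell (16.9%), 4 rose (5.19%) and 46 were negative. Among the cytosolic genes, 26 of 43 RPL genes fell (60.5%, median -0.16) and 23 of 30 RPS genes (76.7%, median -0.20). Complex I, whose mtDNA-encoded subunits the mitoribosome makes, had 9 of 36 tested nuclear genes higher (25.0%, background 12.9%) and 5 lower (13.9%, background 13.9%). The median of these 36 was 0.02. These lists differ in depth from the members, with a median level of 1260.0 CPM in sgCtrl for the cytosolic ribosomal protein genes and 97.7 CPM for the members, and the difference between lists was not tested.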

How the data were processed

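Ribosome footprints were sequenced from 6 K562 libraries. Whole-number footprint counts per transcript were deposited by the authors as 1 table, neither normalized nor pooled. Per the study's methods, adapters were trimmed with cutadapt, reads of footprint length were mapped to GRCh38 with HISAT2, rRNA and tRNA reads were removed, and the rest were mapped to canonical transcripts with bowtie2. P-sites from riboWaltz were summed over each CDS, and overlaps with a gene annotation were counted for DESeq2. The sources do not say which kind of count was deposited. Reads carried no described molecular identifiers, so counting error understates the error. Groups follow the genotype label, and the methods describe independent lentiviral transductions.

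The table was tested whole in edgeR 4.0.16 (R 4.3.3). filterByExpr (minimum of 10 counts) left 9202 genes and removed 10128. TMM factors scaled the libraries, and a 2-sided quasi-likelihood F test with robust estimation compared the groups, with Benjamini-Hochberg adjustment and a threshold of 0.05. SEs derive from the F statistic. CDS length and GC came from GENCODE release 44, matched by transcript identifier for 74 members (MRPL45, MRPS12 and MRPS18B were unmatched and take only the location of the gene). For 26 of the 74 the listed transcript is not the Ensembl canonical one, and for MRPL30 and MRPL33 it is annotated as a target of nonsense-mediated decay. MRPS24 shares its sequence with the readthrough gene URGCP-MRPS24 (22 to 28 counts per library) and is uncertain. The members and lists were chosen with earlier results of these data known. Named were all members past the threshold, those beside it, the 5 highest and 5 lowest per kb, and DAP3, MRPL12, MRPS30, MRPS36, the MRPS18 paralogs, the mitoribosome proteins under other names, and partners past the threshold. MRPS6, MRPS11, MRPS24 and the rest of the genes listed for the stalk and central protuberance were named after their values were seen, as was GC by codon position. On simulated counts for this comparison, edgeR recovered 34.3% of 99 changes of 0.4 and 84.7% of 98 changes of 1 (log2 scale, 9168 genes). Of its calls, 3.31% were false. The simulation changed far fewer genes than the 2473 called in the data, so its recovery does not carry over directly. Alternatives were DESeq2 1.42.0, limma-voom (limma 3.58.1), other scalings and filters, removal of trends (loess, span 0.5), a replicate block and fits without each library.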

Additional observations from a re-analysis of the deposited data

How the results depend on the processing

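Over the alternatives, 11 of the 17 called members kept their call and 0 changed sign. Fits without 1 library each called 13 to 19 members (16.9% to 24.7%), 8 to 12 MRPL genes (16.7% to 25.0%) and 5 to 7 small-subunit genes (17.2% to 24.1%). They called 1859 to 2322 of all genes (20.0% to 24.9%). Their medians ran from 0.0 (without sgCtrl 2) to 0.0507 for MRPL and from -0.1379 to -0.0984 (without sgCtrl 2) for small-subunit genes. Total counts only called 17 MRPL genes (35.4%, background 27.6%), 11 higher and 6 lower, where the main fit had 3 higher and 7 lower. It gave medians of 0.1046 (MRPL) and -0.0882 (small subunit). DESeq2 called 1329 of all genes (12.4%) and 4 small-subunit genes (13.8%). The MRPL median was 0.0781 at a mean of at least 50 counts and -0.0057 with length and GC trends removed. On the log2 scale the MRPL to small-subunit ratio rose by 0.114 as a mean of log2 CPM, against 0.09 from sums. The cause of these moves was not tested.

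Members near 0 changed sign in several settings, at most 11 of the 77 (with total counts, all from negative to positive), and 0 of the 17 called members did in any. The members that turned included, with total counts, DAP3 (0.007), MRPL23 (0.0148), MRPS21 (0.0301) and MRPS31 (0.0059), at a mean of at least 50 counts MRPS21 (0.0013), and with trends removed MRPL12 (-0.0057). Without 1 library, values ran from -0.1153 to 0.0219 for DAP3, -0.1424 to 0.0502 for MRPL23, -0.056 to 0.0159 for MRPS21, -0.0432 to 0.1295 for MRPL12 and -0.0134 to 0.2318 for MRPL43.

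Replicate numbers showed no pairing of the samples (correlations of same-numbered deviations -0.139, 0.035 and 0.003 over 5874 genes). Libraries with different numbers had correlations from -0.141 to 0.139. With 3 libraries per group, whose deviations are bound together, this check cannot exclude pairing. With the replicate block, 15 members (19.5%, 3 higher, 12 lower) and 2390 of all genes (26.0%) were called, and MRPS18B (adjusted p = 0.0563) and MRPS30 (0.0507) were not. Protein length in place of CDS length was not run, since no protein table was used here. At 9 to 25 counts per library, MRPL33 is limited by depth.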
